A study of Mus musculus with 26 samples.

Results

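Heme synthesis and turnover were followed in mouse liver through 9 genes: Alas1, Alad, Urod, Cpox, Ppox, Fech, Hmox1, Clpx and Por. The genes were chosen by name, with earlier results of these data known. Each was read from its best expressed transcript, the one with the highest mean log2 value over 20 RNA-seq libraries. They are 9 of 22322 gene symbols in the files. All 9 passed the filter on low values (a mean of at least 0.5 RPKM, reads scaled by transcript length and by library size) in both experiments, with 11439 genes tested for Bmal1 and 12738 for Nr1d1.

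The livers came from mice of 8 weeks, kept in a light-dark cycle and then in constant darkness. They were taken at circadian time 0 (CT0, the hour of lights on in the earlier light-dark cycle) or CT12. The Bmal1 experiment held 12 livers, 3 in each of 4 groups: C57BL/6 controls at CT0, the same controls at CT12, and mice labelled Bmal1 knockout, described as liver-specific, at both times. The Nr1d1 experiment held 8 livers, 2 in each of the same 4 groups, with C57BL/6 controls and mice labelled Nr1d1 knockout; replicate 2 alone is labelled paired-end. No source used here names the Cre driver of the Bmal1 mice.

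Heme is built partly in the mitochondrion and partly in the cytosol. ALAS1 makes 5-aminolevulinate, the rate-limiting step in liver, and ALAD, UROD, CPOX, PPOX and FECH catalyse later steps, FECH placing iron into the porphyrin. HMOX1 opens the heme ring and so begins its breakdown. CLPX is the ATPase of the mitochondrial ClpXP protease and is known both to activate ALAS and to take part in the turnover of ALAS1. POR passes electrons from NADPH to the microsomal cytochromes P450, which carry heme, and to heme oxygenase. The pathway is tied to the circadian clock from both sides: the REV-ERB nuclear receptors (genes Nr1d1 and Nr1d2) bind heme, and Alas1 transcription is known to follow the clock in liver. BMAL1 (gene Arntl) acts with its partners at E-boxes, and REV-ERB proteins at RORE sites.

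Promoters were read for 7 of the 9 genes from RefSeq on GRCm38.p6, each 300 bases long, from 250 before to 50 after an annotated start; Fech and Hmox1 are not among them. The deposited values were made on another build, mm9, so these coordinates locate the promoters only. The set below is shown because Alas1, Clpx and Por are the members whose RNA differed most between the groups, while Alad and Urod hold an E-box and their RNA passed no test. Capitals mark matches, on either strand, to 7 motifs: the E-box CACGTG, the E-prime box CACGTT, the D-box TTACGTAA or TTATGTAA, the RORE core TAGGTCA, the nuclear respiratory factor core CGCATGCG, the CRE TGACGTCA and the NRF2 core TGACNNNGC.
Alas1: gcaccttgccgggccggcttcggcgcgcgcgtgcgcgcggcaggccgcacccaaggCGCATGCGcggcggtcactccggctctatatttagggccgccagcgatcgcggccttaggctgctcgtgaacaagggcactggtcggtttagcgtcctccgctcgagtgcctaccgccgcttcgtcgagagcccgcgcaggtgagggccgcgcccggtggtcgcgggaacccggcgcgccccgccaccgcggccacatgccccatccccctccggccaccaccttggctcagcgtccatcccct
Clpx: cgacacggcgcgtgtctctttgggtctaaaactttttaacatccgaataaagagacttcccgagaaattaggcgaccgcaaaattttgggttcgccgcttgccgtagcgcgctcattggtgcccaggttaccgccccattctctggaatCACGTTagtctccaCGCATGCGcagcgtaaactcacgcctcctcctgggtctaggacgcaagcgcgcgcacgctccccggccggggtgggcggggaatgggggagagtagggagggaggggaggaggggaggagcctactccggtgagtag
Por: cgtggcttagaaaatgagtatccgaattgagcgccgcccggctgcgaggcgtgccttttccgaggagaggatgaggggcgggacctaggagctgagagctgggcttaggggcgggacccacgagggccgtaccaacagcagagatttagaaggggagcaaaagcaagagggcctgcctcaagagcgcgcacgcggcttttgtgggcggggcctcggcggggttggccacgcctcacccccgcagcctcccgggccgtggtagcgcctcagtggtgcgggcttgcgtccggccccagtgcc
Alad: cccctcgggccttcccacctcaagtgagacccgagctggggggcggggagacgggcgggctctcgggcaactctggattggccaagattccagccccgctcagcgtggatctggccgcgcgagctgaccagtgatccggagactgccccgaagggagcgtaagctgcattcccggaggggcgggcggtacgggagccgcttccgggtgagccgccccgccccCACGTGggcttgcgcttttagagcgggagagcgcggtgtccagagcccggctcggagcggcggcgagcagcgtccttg
Urod: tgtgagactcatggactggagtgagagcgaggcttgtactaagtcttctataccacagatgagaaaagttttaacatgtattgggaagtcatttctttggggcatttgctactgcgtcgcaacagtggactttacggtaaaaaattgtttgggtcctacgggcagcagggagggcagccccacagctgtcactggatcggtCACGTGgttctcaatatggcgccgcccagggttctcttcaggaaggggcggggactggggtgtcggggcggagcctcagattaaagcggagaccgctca

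The Alas1 promoter lies on the minus strand at chr9:106247681-106247980 and holds the nuclear respiratory factor core, which starts 194 bases before the start site. A second annotated Alas1 start places the same core 30 bases after it. The Clpx promoter, on the plus strand at chr9:65294010-65294309, holds an E-prime box 101 bases and the nuclear respiratory factor core 87 bases before its start. The Por promoter, on the plus strand at chr5:135688895-135689194, holds none of the 7 motifs, and neither do those of Cpox and Ppox. E-boxes are found in the promoters of Alad, on the minus strand at chr4:62519860-62520159 (28 bases before the start), and of Urod, on the minus strand at chr4:116994364-116994663 (49 bases before). A second Alad promoter holds another E-box, 105 bases before its start. Among 32851 RefSeq promoters of this length, 7.15% held the E-box, 4.68% the E-prime box, 1.06% the D-box, 2.61% the RORE core, 1.87% the nuclear respiratory factor core, 1.79% the CRE and 12.39% the NRF2 core. No 2 matches overlapped in the promoters of the 7 genes. A match is a string of letters, and the files used here measure no binding at it.

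The targeted genes were checked against the labels. Arntl was at 15.7 to 16.3 RPKM in the 3 control livers at CT0 and at 5.73 to 7.45 in the livers labelled Bmal1 knockout; at CT12 it was at 0.680 to 1.26 in controls and higher, at 3.59 to 4.37, in the labelled knockouts. Nr1d1 RNA was higher than in the matching control in 3 of the 4 livers labelled Nr1d1 knockout: it was 6.10 and 11.1 RPKM at CT0 and CT12 in replicate 1, against 0.374 and 3.45 in controls, and 32.9 and 28.4 in replicate 2, against 22.0 and 33.4. RPKM covers the whole transcript, so loss of a few exons would not show, and the livers are called labelled knockouts throughout. Albumin RNA, the main hepatocyte product, made up 6.1 to 8.06% of the summed RPKM in Bmal1 controls and 3.21 to 4.74% in the labelled knockouts. The 8 hepatocyte markers were at 41600 to 53400 RPKM in sum in controls and 29600 to 37800 in the labelled knockouts, and none was at 0. Albumin made up that gap: the other 7 markers summed to 15000 to 16400 RPKM in controls and 14700 to 16900 in the labelled knockouts. Albumin was also the 1 of 8 that passed, lower at both times, where 1.62% of all genes passed at CT0 and 9.68% at CT12. The list's medians were -0.17 at CT0 and 0.06 at CT12. In whole liver, fewer cells of a type and less RNA per cell cannot be told apart. In the Nr1d1 experiment the summed RPKM was 588418 to 875424 in replicate 1 and 2099300 to 2211050 in replicate 2, so its values are given by replicate and never averaged.

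In control livers, the RNA of Alas1 and Por rose from CT0 to CT12 and that of Clpx and Hmox1 fell. In the livers labelled Bmal1 knockout, Alas1 still rose and Hmox1 still fell, but no change of Clpx or Por passed the test. Between genotypes at CT12, Clpx and Hmox1 were higher and Por and Fech lower in the labelled knockouts; at CT0 no difference of a member passed. Alad, Urod, Cpox and Ppox passed the test in none of the Bmal1 comparisons.

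**Figure D1:**
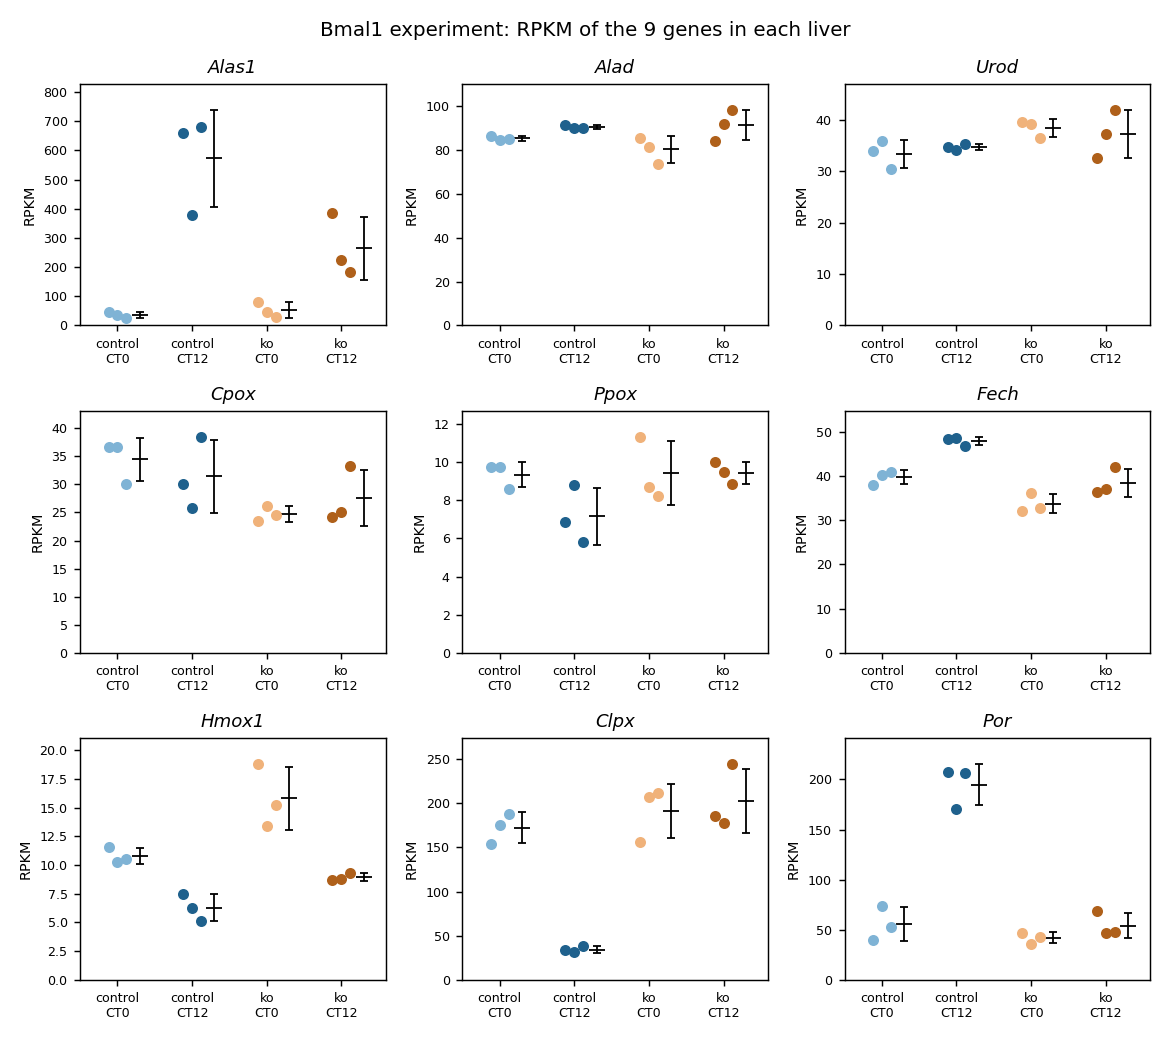
RPKM (linear axis from 0) of each gene in the 12 livers of the Bmal1 experiment by group, with 1 point for each liver and a bar for the mean ± SD (n = 3). Alas1 runs from 25.0 to 45.9 in controls at CT0 to between 380 and 679 at CT12, Clpx is low in the controls at CT12 alone (31.0 to 38.2), and Por is high in that group alone (171 to 207).

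By level per length, the order of the 9 genes in control livers turned over between the 2 times. At CT0 Clpx was highest (172.5 ± 17.5 RPKM, SD, n = 3), followed by Alad (85.4 ± 1.09) and Por (55.6 ± 17.0). The ranges of Por, Fech, Alas1, Cpox and Urod overlapped from each to the next in the order, between 55.6 and 33.4 RPKM on average. Hmox1 (10.8 ± 0.696) and Ppox (9.36 ± 0.647) were lowest. At CT12 Alas1 was highest (572 ± 167 RPKM), Por came next (195 ± 20.8) and Clpx (34.2 ± 3.69) had moved to the sixth place, where its range overlapped those of Urod and Cpox. In the labelled knockouts Clpx was at the top at CT0, and at CT12 its range (177 to 245) overlapped that of Alas1 (183 to 386).

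Alas1, which encodes the enzyme of the rate-limiting step, had 45.9, 37.2 and 25.0 RPKM in control livers at CT0 and 659, 380 and 679 at CT12. In the labelled Bmal1 knockouts it had 81.9, 44.8 and 28.1 RPKM at CT0 and 386, 225 and 183 at CT12. The 2 times did not overlap in either genotype; the genotypes overlapped at both times, at CT12 because the highest labelled knockout liver (386) passed the lowest control (380). The rise was 15.6-fold in controls, a log2 difference (on the scale of log2 of RPKM + 0.5, as for every difference below) of 3.97 ± 0.39 (SE; adjusted p = 6.81e-05), the 4th largest in size of 11439 genes. In the labelled knockouts it was 5.31-fold, 2.41 ± 0.39 (adjusted p = 0.0129). The rise in the labelled knockouts did not pass without CT0 replicate 3 (2.04, adjusted p = 0.0502) or without CT12 replicate 1 (2.10, adjusted p = 0.0533) of that genotype. The difference between the 2 rises, tested as the interaction of genotype and time, was -1.56 ± 0.55 (adjusted p = 0.261). At CT12 the labelled knockouts differed from controls by -1.14 ± 0.39 (adjusted p = 0.0916), and at CT0 by 0.42 ± 0.39 (adjusted p = 0.71). The difference at CT12 passed when the labelled knockout CT0 replicate 1, the liver with the highest Alas1 at that time, was left out of the fit (-1.14, adjusted p = 0.0466).

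Counts of members called at an adjusted p under 0.05 were read against all genes tested. From CT0 to CT12 in controls, 4 of the 9 passed, 2 higher and 2 lower, where 10.8% of all genes passed. In the labelled knockouts 2 of 9 passed over the same times, 1 in each direction, where 1.9% of all genes passed. Between genotypes at CT12, 4 of 9 passed (2 higher, 2 lower) against 9.68% of all genes. At CT0 0 of 9 passed limma's test, with 3 at an unadjusted p under 0.05, against 1.62% of all genes. The interaction was called for 2 of 9, Clpx and Por, against 1.31% of all genes. The median log2 difference of the 9 was 0.06 in controls over time and 0.14 in the labelled knockouts, 0.01 between genotypes at CT12 and 0 at CT0, beside medians over all genes of -0.08, 0, 0.09 and 0.01. These comparisons share livers, so their counts are not independent of each other. Because the members were chosen with earlier results of these data known, the counts describe these genes and do not test the set.

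Clpx, the protease ATPase, had 153, 176 and 188 RPKM in controls at CT0 and 33.3, 31.0 and 38.2 at CT12. In the labelled Bmal1 knockouts its level was 156, 207 and 212 RPKM at CT0 and 186, 177 and 245 at CT12. The 3 controls at CT12 thus stood far below the 9 other livers, whose lowest value was 153. Clpx fell 4.99-fold over the day in controls (log2 difference -2.32 ± 0.15, adjusted p = 3.24e-06), while the change in the labelled knockouts was 0.08 ± 0.15 (adjusted p = 0.823). At CT12 it was 5.82-fold higher in the labelled knockouts (2.54 ± 0.15, adjusted p = 2.09e-06), the 35th largest difference in size of all genes, and at CT0 the difference was 0.14 ± 0.15 (adjusted p = 0.75). The interaction was 2.40 ± 0.21 (adjusted p = 0.000236). A pseudogene, Gm16218, overlaps Clpx, and whether the counting used strand is not stated in the sources used here. The 3 annotated Clpx transcripts gave differences at CT12 of 2.43, 2.43 and 2.54.

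Por, the electron donor of the microsomal cytochromes P450, showed the opposite shape. Its level was 40.1, 73.8 and 52.9 RPKM in controls at CT0 and 207, 171 and 206 at CT12. The labelled Bmal1 knockouts had 47.1, 35.8 and 43.1 RPKM at CT0 and 68.3, 46.4 and 47.4 at CT12. Here the controls at CT12 stood above all 9 other livers, and every other pair of groups overlapped. The rise in controls was 3.58-fold (1.84 ± 0.21, adjusted p = 0.00021), and the change in the labelled knockouts was 0.34 ± 0.21 (adjusted p = 0.392). Por was 3.62-fold lower in the labelled knockouts at CT12 (-1.86 ± 0.21, adjusted p = 0.000152) and differed by -0.36 ± 0.21 at CT0 (adjusted p = 0.49). The interaction was -1.49 ± 0.29 (adjusted p = 0.0299). That call was lost, with adjusted p between 0.0573 and 0.0818, when control CT0 replicate 1 or 3, control CT12 replicate 1 or 3, labelled knockout CT0 replicate 1 or 3, or labelled knockout CT12 replicate 2 or 3 was left out. The 5 Por transcripts gave -1.86 to -1.90 at CT12. A pseudogene (Gm16061) and a long noncoding RNA (Gm40345) overlap the gene.

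**Figure D2:**
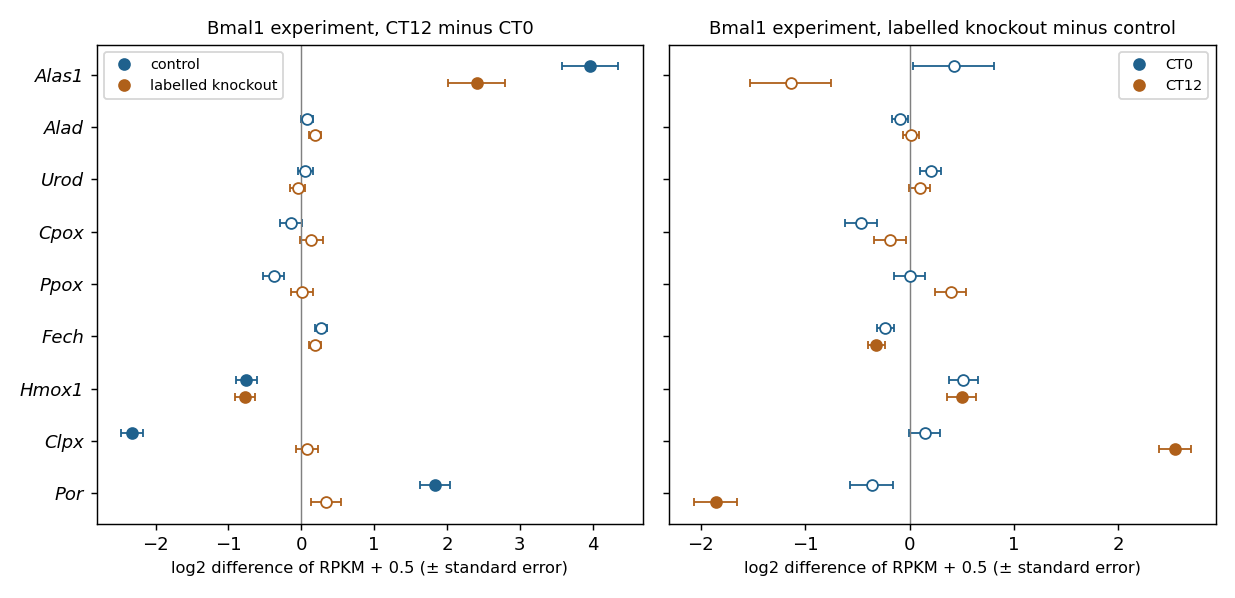
Log2 differences of RPKM + 0.5 with their standard errors for the 9 genes in the Bmal1 experiment, CT12 minus CT0 in each genotype (left) and labelled knockout minus control at each time (right); filled points passed an adjusted p of 0.05 and open points did not. Clpx and Por sit near 0 over time in the labelled knockouts (0.08 and 0.34) and far from 0 in controls (-2.32 and 1.84).

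Hmox1, which begins heme breakdown, had 11.6, 10.3 and 10.5 RPKM in controls at CT0 and 7.47, 6.25 and 5.10 at CT12. The labelled Bmal1 knockouts had 18.8, 13.4 and 15.2 RPKM at CT0 and 8.73, 8.83 and 9.35 at CT12. Every labelled knockout liver was above every control of its time, and every liver at CT12 was below those of its genotype at CT0. Over time Hmox1 fell in controls (-0.75 ± 0.14, adjusted p = 0.00614) and in the labelled knockouts (-0.77 ± 0.14, adjusted p = 0.0221), and the interaction was -0.02 ± 0.20 (adjusted p = 0.987). Between genotypes it was 1.41-fold higher at CT12 (0.50 ± 0.14, adjusted p = 0.0475), while at CT0 the difference of 0.52 ± 0.14 did not pass (adjusted p = 0.106). The call at CT12 is marginal: it was lost under 15 of 22 alternatives, among them both other scalings (0.40 and 0.41, adjusted p = 0.0752 and 0.0647) and the omission of any 1 of 9 of the 12 livers (adjusted p 0.0573 to 0.174): any control at CT0, control CT12 replicate 2 or 3, labelled knockout CT0 replicate 3 or any labelled knockout at CT12. The fall in the labelled knockouts was lost without labelled knockout CT0 replicate 1 or 3 or CT12 replicate 1 or 2 (adjusted p 0.0553 to 0.0799). The other Hmox1 transcript gave 0.29 at CT0 and 0.46 at CT12 between genotypes, against 0.52 and 0.50 for the chosen transcript.

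Markers of cell types other than hepatocytes were read in the same livers as Hmox1, and the lists differed in which comparisons they passed. The summed RPKM of 7 neutrophil markers was 32.2 to 112 in controls at CT0, 5.94 to 8.80 in controls at CT12, 104 to 219 in labelled knockouts at CT0 and 17.8 to 46.3 in those at CT12. Of these markers 5 of 7 fell in controls over time, 5 of 7 fell in the labelled knockouts and 2 of 7 were higher in the labelled knockouts at CT12. Between genotypes at CT0, 0 of 7 passed limma's test. The shares of all genes that passed in these comparisons, in the same order, were 10.8%, 1.9%, 9.68% and 1.62%. For Kupffer cells and macrophages, which express Hmox1, the sum over 11 markers was 176 to 228, 106 to 158, 159 to 231 and 119 to 191 RPKM in the same 4 groups; 1 of 11 fell in controls over time, and 0 of 11 passed limma's test between genotypes at either time, with medians of 0 and 0.22. The 6 cholangiocyte markers summed to 27.2 to 65.0 RPKM in controls and to 88.4 to 152 in the labelled knockouts over both times. Of the 4 tested, 1 was higher in the labelled knockouts at CT0 and 2 at CT12, against 1.62% and 9.68% of all genes. Their medians were 0.49 and 0.5, and their differences at CT12 ran from -0.03 to 1.58. Over time in controls 2 of 7 endothelial and 2 of 7 stellate cell markers fell, with list medians of -0.59 and -0.67. The sums went from 91.1 to 111 RPKM at CT0 to 60.9 to 70.6 at CT12 for endothelial cells and from 131 to 182 to 95.4 to 112 for stellate cells and fibroblasts. Between genotypes 0 of 7 passed in either list at either time. In the Bmal1 experiment none of these lists held a marker at 0 in all livers of a group, and their part in the Hmox1 result was not tested.

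Fech, the last enzyme of the pathway, had 38.1, 40.2 and 41.0 RPKM in controls at CT0 and 48.4, 48.7 and 46.9 at CT12. The labelled Bmal1 knockouts had 32.2, 36.3 and 32.9 RPKM at CT0 and 36.4, 37.0 and 42.1 at CT12. The genotypes did not overlap at either time. Fech was 1.25-fold lower in the labelled knockouts at CT12 (-0.32 ± 0.08, adjusted p = 0.0304), and the difference at CT0 was -0.23 ± 0.08 (adjusted p = 0.213). Its difference over time was 0.27 ± 0.08 in controls (adjusted p = 0.0571), which passed with median-ratio scaling (0.36, adjusted p = 0.0133), with quantile normalization (0.31, adjusted p = 0.0342) and without labelled knockout CT12 replicate 3 (0.27, adjusted p = 0.044). The call at CT12 was lost under 7 of 22 alternatives, among them the omission of any of the 3 controls at CT12 or of labelled knockout CT12 replicate 1 or 2 (adjusted p 0.071 to 0.102). Erythroid cells also make heme. At CT12 their 9 measured markers summed to 109 to 191 RPKM in controls and 246 to 308 in the labelled knockouts. There 2 of 6 tested were higher, against 9.68% of all genes. At CT0 the sums overlapped, at 162 to 381 RPKM in controls and 214 to 224 in the labelled knockouts. There 0 of 6 passed limma's test, against 1.62% of all genes. The part of erythroid cells in the Fech result was not tested.

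The 4 middle enzymes passed in no Bmal1 comparison of the main fit. Alad, which joins 5-aminolevulinate into porphobilinogen, ran from 73.9 to 98.3 RPKM over the 12 livers, and its largest difference was 0.19 ± 0.08 over time in the labelled knockouts (adjusted p = 0.232). In controls its 2 times did not overlap (84.4 to 86.6 RPKM at CT0, 90.0 to 91.5 at CT12), with a difference of 0.08 ± 0.08 (adjusted p = 0.562). Urod, the uroporphyrinogen decarboxylase, ran from 30.4 to 42.1 RPKM, with differences from -0.05 to 0.20 in the 4 comparisons of 2 groups. Its genotypes did not overlap at CT0 (30.4 to 35.9 RPKM in controls, 36.5 to 39.7 in the labelled knockouts), but the difference did not pass (adjusted p = 0.407). Cpox, the coproporphyrinogen oxidase, had 36.7, 36.7 and 30.0 RPKM in controls at CT0 and 23.5, 26.1 and 24.6 in the labelled knockouts, groups that did not overlap, but the difference of -0.47 ± 0.15 did not pass (adjusted p = 0.184). Ppox, the protoporphyrinogen oxidase, ran from 5.81 to 11.3 RPKM. At CT12 its genotypes did not overlap and differed by 0.39 ± 0.15 (adjusted p = 0.129). That difference passed without control CT12 replicate 2 (0.54, adjusted p = 0.0442), the control with the highest Ppox at that time.

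The reads recovered behind these levels differed between the genes. RPKM values of a transcript are whole multiples of the worth of 1 read, and from these steps the Bmal1 libraries gave 38 to 156 reads for Hmox1, 142 to 337 for Ppox, 263 to 1931 for Clpx, 454 to 3067 for Por and 687 to 22630 for Alas1. Each gene's numbers are known only up to a factor, which may differ between genes, and cover the chosen transcript alone. Hmox1 and Ppox had the lowest numbers recovered, but that order depends on these factors.

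Across the 12 livers of the Bmal1 experiment, the log2 levels of Clpx and Por ran opposite to each other (Pearson r = -0.94). Alas1 correlated with Por at 0.75 and with Clpx at -0.70, and Fech with Hmox1 at -0.87. Urod correlated with no other member beyond 0.34 in size. These correlations describe 12 libraries that fall into 4 groups, and they carry no test. Among all genes tested, the levels most like those of Alas1 over the same 12 livers were those of Usp2, a deubiquitinase (0.97), Ccrn4l, the deadenylase nocturnin (0.96), Amd1, an enzyme of polyamine synthesis (0.96), Pdcd11 (0.95) and Coq10b (0.95). Most like Clpx were Insig2, which holds back SREBP processing (0.99), Gldc, the glycine decarboxylase (0.98), and Ptprk (0.98). Most like Por were Dst, Upp2, a uridine phosphorylase, and Homer2, each at 0.96.

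Of 15 other genes of heme synthesis, import and iron handling, 0 were called from CT0 to CT12 in either genotype of the Bmal1 experiment, where their differences ran from -0.52 to 0.74 in controls and from -0.38 to 0.38 in the labelled knockouts. The shares of all genes called there were 10.8% and 1.9%. In Nr1d1 controls 1 of 15 was called, where 0.353% of all genes were, and the differences ran from -0.97 to 2.01. Between genotypes at CT12, 2 of 15 passed, against 9.68% of all genes. Uros, the enzyme that closes the porphyrin ring, was higher in the labelled Bmal1 knockouts (0.57 ± 0.13, adjusted p = 0.0201), with 8.79 to 12.3 RPKM against 6.33 to 7.73. Abcb6, a porphyrin transporter, was lower (-0.41 ± 0.10, adjusted p = 0.0257), with 26.5 to 30.4 RPKM against 36.2 to 38.6. The median of the list was -0.07, beside 0.09 over all genes.

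Heme transport, scavenging and breakdown genes were called for 3 of 15 at CT12 and 2 of 15 at CT0 between genotypes. Of all genes, 9.68% passed at CT12 and 1.62% at CT0. Ugt1a1, which conjugates bilirubin, was lower in the labelled Bmal1 knockouts at CT0 (-0.55 ± 0.11, adjusted p = 0.036) and CT12 (-0.65 ± 0.11, adjusted p = 0.00382). Blvrb, a biliverdin reductase, was lower by a similar size at both times (-0.51 ± 0.09, adjusted p = 0.0217, and -0.49 ± 0.09, adjusted p = 0.00626). Hmox2, the constitutive heme oxygenase, was higher at CT12 (0.57 ± 0.11, adjusted p = 0.00517), with 31.3 to 38.0 RPKM against 21.2 to 24.3 in controls. The list's median was -0.02 at CT0 and 0.07 at CT12. Over time 0 of its 15 genes were called in either genotype, where 10.8% of all genes passed in controls and 1.9% in the labelled knockouts.

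Among regulators of Alas1 and Hmox1 and heme sensors, all called members lay lower in the labelled Bmal1 knockouts: 2 of 15 at CT0 and 3 of 15 at CT12. The shares of all genes that passed were 1.62% and 9.68%. The heme receptors Nr1d1 (-1.94 ± 0.37, adjusted p = 0.0252) and Nr1d2 (-1.11 ± 0.24, adjusted p = 0.0416) were lower at CT0. Nr1d1 was low there, at 0.271 to 0.801 RPKM in the labelled knockouts, near the added 0.5. The controls had 2.04, 2.05 and 6.57 RPKM, so the size of its difference is uncertain. At CT12 Nr1d2 (-2.07 ± 0.24, adjusted p = 0.000187), Bach1, the heme-binding repressor of Hmox1 (-0.90 ± 0.16, adjusted p = 0.00324), and Nr1i3, the xenobiotic receptor CAR (-0.84 ± 0.20, adjusted p = 0.0232), were lower. From CT0 to CT12 in controls 5 of 15 rose, where 10.8% of all genes passed. The 4 largest were Nr1d2 (1.94), Nr1i3 (0.72), Bach1 (0.72) and Foxo1 (0.64). In the labelled knockouts 0 of 15 passed, where 1.9% of all genes did. Ppargc1a, the coactivator known to induce Alas1 in fasting, ran from 2.37 to 5.18 RPKM over the 12 livers and was called in no comparison.

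On a list of mitochondrial proteases other than Clpx, import peptidases and prohibitins, 0 of 17 passed between genotypes at either time in limma's test. The medians were 0.13 at CT0 and 0.09 at CT12, and 1 of 17, Afg3l2, rose in controls over time (0.39 ± 0.08, adjusted p = 0.0111). Clpp, the peptidase partner of CLPX, had 18.7 to 25.1 RPKM in all 12 livers, and Lonp1, the other soluble matrix protease, 37.3 to 45.5. On a mixed list of electron transfer genes, not all of them partners of Por, 2 of 11 were higher in the labelled knockouts at CT12. They were Sqle (0.91 ± 0.22, adjusted p = 0.0217) and Cyp51 (0.86 ± 0.19, adjusted p = 0.0155), both enzymes of cholesterol synthesis that draw electrons from POR, where Por itself was lower. Over time in controls 1 of 11 rose, Fdx1, a mitochondrial ferredoxin (0.47 ± 0.12, adjusted p = 0.0238). Of all genes, 1.62% passed between genotypes at CT0, 9.68% at CT12 and 10.8% over time in controls.

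Hepatic hemoproteins, the proteins that use the heme, were called for 4 of 22 at CT0 and 5 of 22 at CT12 between genotypes, in both directions. Of all genes, 1.62% passed at CT0 and 9.68% at CT12. At CT12 Cyp2a4 (-3.95 ± 0.24, adjusted p = 2.11e-06), Cyp2a5 (-3.91 ± 0.20, adjusted p = 9.97e-07) and Cyp4a10 (-2.08 ± 0.59, adjusted p = 0.0447) were lower in the labelled Bmal1 knockouts, and Cyp2b10, a target of CAR, was higher (2.45 ± 0.56, adjusted p = 0.0158). At CT0 Cyp2b10 (2.85) and Cyp2c29 (1.43) were higher and Cyp2a4 (-1.39) and Cyp2a5 (-1.34) lower. In controls over time 6 of 22 passed, where 10.8% of all genes did. The 4 largest were Cyp2a5 (2.71), Cyp2a4 (2.60), Cyp7a1, which starts bile acid synthesis (1.90), and Cyp2e1 (0.72). In the labelled knockouts 2 of 22 fell, Mpo, a neutrophil peroxidase (-1.90), and Suox, the sulfite oxidase (-0.68), where 1.9% of all genes passed. Cyp2a4 and Cyp2a5 are near-identical, and how the counting split their reads is not given in the sources used here.

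In the Nr1d1 experiment Alas1, Clpx and Por again had the largest changes of the 9 over time in controls, with fewer livers behind them. Alas1 rose from CT0 to CT12 in controls, the only member called in any of the 5 comparisons. Clpx and Alas1 had their largest differences between genotypes at CT12, in the same direction in both replicates, but neither passed the test. The fit carried the replicate number as a block, since it also marks the library layout.

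**Figure D3:**
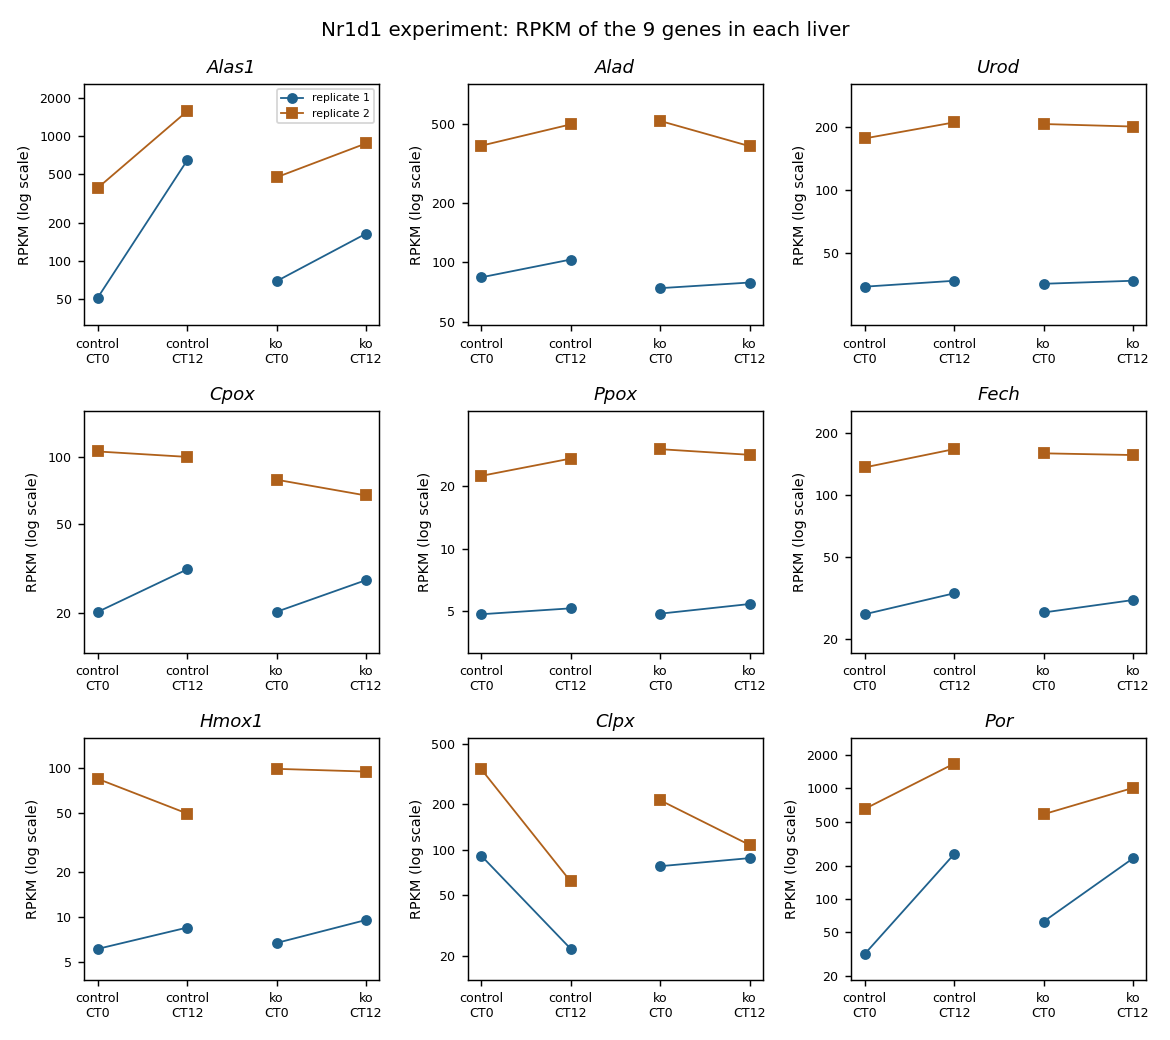
RPKM (log axes) of the 9 genes in the 8 livers of the Nr1d1 experiment; circles are replicate 1 and squares replicate 2, and each line joins CT0 and CT12 within a replicate and genotype. Replicate 2 lies above replicate 1 for every gene, and Clpx falls steeply in both control pairs (91.7 to 22.2 and 343 to 61.9).

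Alas1 had 50.8 RPKM at CT0 and 637 at CT12 in the controls of replicate 1, and 384 and 1575 in those of replicate 2. In the labelled Nr1d1 knockouts it had 69.1 and 166 RPKM in replicate 1 and 467 and 872 in replicate 2. It was higher at CT12 in all 4 pairs. The log2 rise was 3.63 and 2.04 in the control pairs and 1.26 and 0.90 in the labelled knockout pairs. In the fit it was 2.84 ± 0.36 in controls (adjusted p = 0.0224) and 1.08 ± 0.36 in the labelled knockouts (adjusted p = 0.285), with an interaction of -1.76 ± 0.51 (adjusted p = 0.964). The call in controls was lost without the replicate block (2.84, adjusted p = 1) and, with adjusted p of 0.06 to 0.225, without control CT0 replicate 1 or 2, control CT12 replicate 1, or labelled knockout CT0 replicate 1 or 2. At CT12 the labelled knockouts lay below controls in both replicates (-1.94 and -0.85), and the fitted difference was -1.40 ± 0.36 (adjusted p = 0.58).

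Clpx had 91.7 and 22.2 RPKM at CT0 and CT12 in the controls of replicate 1 and 343 and 61.9 in those of replicate 2. The labelled Nr1d1 knockouts had 78.0 and 88.2 RPKM in replicate 1 and 213 and 108 in replicate 2. The control pairs moved by -2.02 and -2.46 and the labelled knockout pairs by 0.18 and -0.98, so the knockout pairs differed in sign. In the fit the controls changed by -2.24 ± 0.34 (adjusted p = 0.0562) and the labelled knockouts by -0.40 ± 0.34 (adjusted p = 0.637). The change in controls passed when either labelled knockout liver at CT12 was left out (adjusted p = 0.00357 and 0.0036), with quantile normalization (-2.39, adjusted p = 0.0347), with a filter of 2 RPKM (adjusted p = 0.042) and with only the controls in the fit (adjusted p = 0.000608). Clpx was above control at CT12 in both replicates (1.97 and 0.80), with a fitted difference of 1.38 ± 0.34 (adjusted p = 0.559). The interaction was 1.84 ± 0.49 (adjusted p = 0.931).

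Por had 31.7 and 254 RPKM at CT0 and CT12 in the controls of replicate 1 and 650 and 1670 in those of replicate 2. The labelled Nr1d1 knockouts had 62.2 and 233 RPKM in replicate 1 and 583 and 1007 in replicate 2. Por was higher at CT12 in all 4 pairs, by 2.98 and 1.36 in controls and by 1.89 and 0.79 in the labelled knockouts. The fitted differences were 2.17 ± 0.45 (adjusted p = 0.149) and 1.34 ± 0.45 (adjusted p = 0.285). The difference in controls passed without either labelled knockout liver at CT12 (adjusted p = 0.0379 and 0.038) and with only the controls in the fit (adjusted p = 0.0123). Between genotypes at CT12 Por differed by -0.43 ± 0.45 (adjusted p = 1).

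Hmox1 moved in opposite directions over time in the 2 control pairs (0.44 and -0.76), and no difference of it passed. Fech, Alad, Urod, Cpox and Ppox had fitted differences between -0.49 and 0.33 in the 5 comparisons, the interaction included, and none passed. Of the 9 members, 1 was called over time in controls where 0.353% of all genes were, and 0 elsewhere. The shares of all genes called were 0.055% over time in the labelled knockouts, 0% between genotypes at CT0, 0.0393% at CT12 and 0% for the interaction. At an unadjusted p under 0.05 the members numbered 3 over time in controls, 2 over time in the labelled knockouts, 0 and 2 between genotypes at CT0 and CT12, and 2 for the interaction. With 3 residual degrees of freedom, the standard errors for Alas1, Clpx and Por were 0.34 to 0.45 in the 4 comparisons of 2 groups and 0.49 to 0.63 for the interaction. The fits with only the controls, and those without 1 liver, leave fewer degrees of freedom. Their adjusted p for Alas1, Clpx and Por therefore rest mostly on the spread that limma borrows from other genes.

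**Figure D4:**
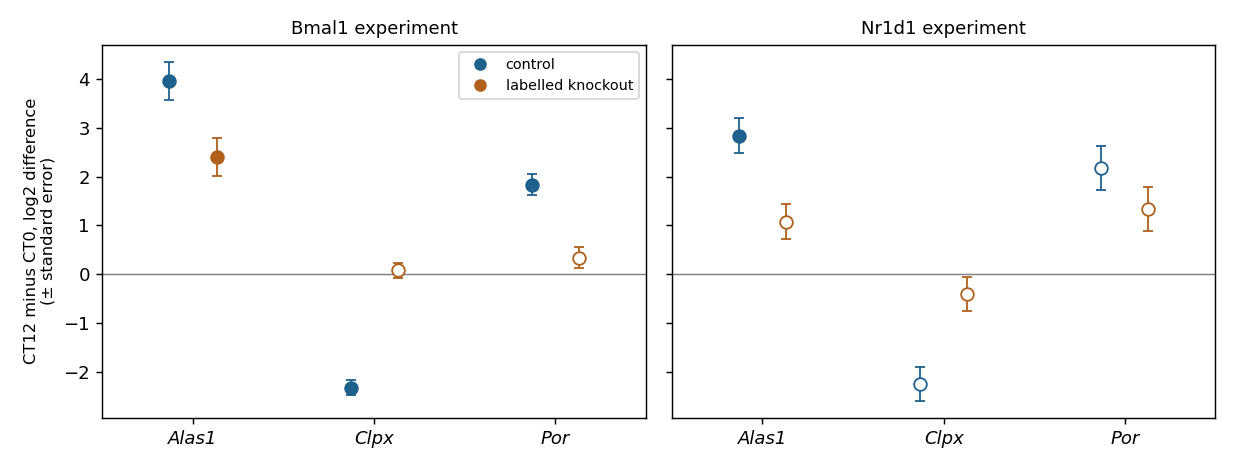
Change from CT0 to CT12 (log2 difference of RPKM + 0.5, ± SE) of Alas1, Clpx and Por in controls and labelled knockouts of the Bmal1 experiment (left, 3 livers a group) and the Nr1d1 experiment (right, 2 livers a group); filled points passed an adjusted p of 0.05. In controls Clpx changed by -2.32 and -2.24 in the 2 experiments, and in the labelled knockouts by 0.08 and -0.40.

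Of the other heme genes, Tfrc, the transferrin receptor that brings iron into the cell, rose over time in Nr1d1 controls (2.01 ± 0.20, adjusted p = 0.00815), from 3.65 to 13.7 RPKM in replicate 1 and from 2.49 to 13.6 in replicate 2. In Bmal1 controls the range of Tfrc was 7.44 to 13.3 RPKM at CT0 and overlapped that at CT12 (12.3 to 21.6), and the gene was not called. Cyp2a5 rose over time in Nr1d1 controls as well (2.53 ± 0.25, adjusted p = 0.00759), from 127 to 802 and from 816 to 4314 RPKM. No other gene of the 6 lists passed in the Nr1d1 experiment.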

How the data were processed

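RNA-seq of 20 livers was used (12 in the Bmal1 and 8 in the Nr1d1 experiment); 6 libraries of chromosome contacts were not analysed here. The authors deposited RPKM per transcript on mm9, and the submitters' processing notes name TopHat2, Bowtie (not for Nr1d1 replicate 2) and bedtools 2.19.1; no source used here gives read totals or the strand setting. The 46585 transcripts shared by every library were joined and reduced to 1 per symbol. limma 3.58.1 (eBayes with a mean trend, two-sided) was run on log2(RPKM + 0.5), over genes averaging at least 0.5 RPKM, with Benjamini-Hochberg adjustment over all genes tested and calls at 0.05, for 5 contrasts in each experiment. All 4 groups entered each fit, leaving 8 residual degrees of freedom for Bmal1 and 3 for Nr1d1.

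The Nr1d1 fit had the replicate number as a block: same-numbered libraries deviated together (correlation of deviations from the group means 0.82 to 0.88), and the labels tie replicate 2 to another library layout. The Bmal1 fit had none: the labels speak of pairs but do not say that a replicate number marks them. The script was tested on simulated data. Reads were recovered from RPKM steps for 16556 of 16629 transcripts above 0 in the Bmal1 libraries (99.6%, tolerance 0.05 reads), for description only, and not for Nr1d1. The members and gene lists were chosen with earlier results of these data known. Named were all 9 members, up to 4 called genes for each list and comparison (largest first), the targeted genes, and the genes most correlated with Alas1 (5), Clpx and Por (3 each). Alternatives changed the pseudocount, filter, scaling, groups in the fit, transcript choice, trend, block and each library in turn.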

Additional observations from a re-analysis of the deposited data

Results flagged for a closer look

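Results were listed here where the change from CT0 to CT12 differed between genotypes by the test of the difference itself, the interaction of genotype and time in limma's fit of the Bmal1 experiment. For Clpx the interaction was 2.40 ± 0.21 (adjusted p = 0.000236), and all 3 controls at CT12 lay below every control at CT0 while the 2 times overlapped in the labelled knockouts. For Por it was -1.49 ± 0.29 (adjusted p = 0.0299), a call that was lost under 10 of 21 alternatives, 8 of them the omission of 1 liver (adjusted p 0.0573 to 0.0818), while no alternative ended the call for Clpx. Among the hepatic hemoproteins it was -2.56 ± 0.29 for Cyp2a5 (adjusted p = 0.00117) and -2.56 ± 0.34 for Cyp2a4 (adjusted p = 0.00298). Cyp2a5 had 88.6 to 142 RPKM in controls at CT0 and 622 to 879 at CT12, against 32.6 to 55.1 and 45.9 to 52.7 in the labelled knockouts. Reads of these 2 near-identical genes may be shared, so they are not separate evidence.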

How the results depend on the processing

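Clpx and Por kept their calls at CT12 between genotypes and over time in Bmal1 controls in all 22 alternatives, Alas1 its rise in controls in all 22, and Clpx its interaction in all 21 that gave a value; no called value changed sign. Another 57 changes of sign concerned values called neither way. The number of members called between genotypes at CT12 (4) was 2 with only the groups of the contrast in the fit, 2 without the mean trend, and 2 to 5 when a liver was left out. Over time in the labelled Bmal1 knockouts (2) it was 0 with only the groups of the contrast in the fit and 0 to 2 with a liver left out. For the Bmal1 interaction (2) it was 1 with no filter on RPKM, 1 with the replicate block, and 1 to 2 with a liver left out; the interaction has no value with only 2 groups. Over time in Nr1d1 controls (1) it was 0 with no filter, 2 with a filter of 2 RPKM, 2 with quantile normalization, 3 with only the groups of the contrast, 0 with no replicate block, and 0 to 3 with a liver left out. The cause was not tested; with no filter more genes enter the adjustment.

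Same-numbered Bmal1 livers deviated little together (correlations of deviations from -0.06 to 0.12), which cannot show whether they were paired. With the replicate block, Alas1 at CT12 was called (-1.14, adjusted p = 0.0262) and the Por interaction was not (adjusted p = 0.067). With no filter the share of all genes called fell from 1.62 to 0.698% between Bmal1 genotypes at CT0, from 9.68 to 5.93% at CT12, from 10.8 to 6% over time in controls, from 1.9 to 0.902% in the labelled knockouts and from 1.31 to 0.668% for the interaction. With only the groups of the contrast it was 0.944% between genotypes at CT0 and 0.219% over time in the labelled knockouts. Leaving out 1 liver also lowered these shares by over 1.5 times: to 0.717 to 0.988% between genotypes at CT0 (control CT0 replicate 2 or 3, labelled knockout CT0 replicate 1 or 3), to 6.25 and 6.45% at CT12 (control CT12 replicate 3, labelled knockout CT12 replicate 2), to 5.54 to 6.43% over time in controls (CT0 replicate 2 or 3, CT12 replicate 1 or 3), to 0.42 to 1.1% in the labelled knockouts (control CT0 replicate 2, labelled knockout CT0 replicate 3 or CT12 replicate 1 or 2) and to 0.708 to 0.839% for the interaction (any control at CT0, control CT12 replicate 1 or 3, labelled knockout CT12 replicate 2 or 3). Over time in Nr1d1 controls the share of 0.353% was 0.0422% with no filter, 0.997% with only the groups of the contrast, 0% with no replicate block and 0.0864 to 0.157% without any 1 of the 4 controls; in the labelled Nr1d1 knockouts 0.055% became 1.16% with only the groups of the contrast and 0 to 0.118% under the 9 others that moved it by over 1.5 times, and the Nr1d1 shares between genotypes and for the interaction ran from 0 to 0.298%. Median-ratio scaling and quantile normalization moved the share of higher genes among the called from 66.8 to 46.8 and 52.4% at CT12 and from 31.4 to 52.1 and 49.1% over time in controls. They shifted the median of all genes by over 0.1 only over time in the labelled Nr1d1 knockouts (by -0.13 and -0.18), and by -0.1 in the Nr1d1 interaction with quantile normalization.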

Other observations

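Arntl, the clock gene that encodes BMAL1, separated the Nr1d1 groups at CT12 in both replicates. It was at 0.597 and 1.30 RPKM in the controls of replicates 1 and 2 and at 8.00 and 19.3 in the livers labelled Nr1d1 knockout. At CT0 it was at 8.92 and 39.7 RPKM in controls and at 8.03 and 19.9 in the labelled knockouts. Nr1d2, the other heme-binding REV-ERB gene, had 0.674 and 3.52 RPKM in Nr1d1 controls at CT0 and 9.87 and 10.8 at CT12, and 3.12 and 4.31 against 10.3 and 14.4 in the labelled knockouts. Alas2, the erythroid form of the enzyme that Alas1 encodes, had 33.4 to 43.7 RPKM in Bmal1 controls at CT0 and 20.5 to 24.8 in the labelled knockouts. At CT12 the ranges overlapped (28.1 to 37.1 and 22.6 to 33.1), and neither difference between genotypes passed.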
